A study of Mus musculus with 8 samples.

Results

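The collagen genes of the mouse were examined for binding of ZFP281, a zinc finger transcription factor, in sphere cultures from a mouse model of HER2-driven breast cancer. Members were all protein-coding genes of the RefSeq annotation whose symbol consists of Col, a number, the letter a and a number, which gave 44 of 21887 protein-coding genes on chromosomes 1 to 19, X and Y (assembly GRCm38, the mm10 build). Membership followed from the symbol alone, but the family was chosen with earlier results of these data known. ZFP281 chromatin immunoprecipitation followed by sequencing had been carried out on 3 early lesion (EL) and 3 primary tumour (PT) libraries, labelled as biological replicates, and each group also had 1 input library, not analysed here. All animals were MMTV-HER2/Neu mice on the FvB background, in which the promoter of the mouse mammary tumour virus drives the HER2/Neu oncogene mainly in mammary epithelium. EL donors were 14 to 18 weeks old and had no palpable tumour, and PT donors were older than 20 weeks and carried primary tumours. Cells from digested mammary glands and tumours had been kept for 7 days in mammosphere medium on plates of ultra-low adhesion. The tissue label is mammary lung for EL and breast tumor for PT, and age, stage and tissue label therefore cannot be told apart in this comparison. The cell type label is breast cancer cells in both groups. The labels do not say whether replicates came from separate animals, so the spread between libraries may be technical in part.

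Collagens are secreted or membrane proteins whose chains wind in triple helices. Fibrillar collagens such as types I, III and V form the fibres of connective tissue and are made chiefly by fibroblasts and other mesenchymal cells, type IV builds the basement membrane under the mammary epithelium, and FACIT collagens (fibril-associated collagens with interrupted triple helices) sit on the fibre surface. Fibrillar collagen genes are common markers of mesenchymal cells and of epithelial to mesenchymal transition. ZFP281 is known to bind GC-rich DNA, and its known consensus holds the letters GGGGAGGGG.

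The promoters at which the summits fell show where the binding lay in sequence. A summit is a position of 1 bp that the authors called as the centre of a binding peak. Of the 44 members, 35 had a promoter window of 300 bases in the RefSeq table of the same assembly (GRCm38.p6), reaching from 250 bases before the start site, and Col1a1 was not among them. The windows of Col5a1, Col1a2 and Col6a2, shown first, are the member windows that held a summit in every EL library, and the window of Col4a2, shown last, held the 9-letter motif and no summit in any library. Sequences run 5′ to 3′ along the gene, and capitals mark matches to GGGGAGGGG or to the GC box GGGCGG, read on both strands. The windows are chr2:27886175-27886474 (plus strand) for Col5a1, chr6:4505368-4505667 (plus strand) for Col1a2, chr10:76623355-76623654 (minus strand) for Col6a2, and chr8:11312555-11312854 (plus strand) for Col4a2.
Col5a1: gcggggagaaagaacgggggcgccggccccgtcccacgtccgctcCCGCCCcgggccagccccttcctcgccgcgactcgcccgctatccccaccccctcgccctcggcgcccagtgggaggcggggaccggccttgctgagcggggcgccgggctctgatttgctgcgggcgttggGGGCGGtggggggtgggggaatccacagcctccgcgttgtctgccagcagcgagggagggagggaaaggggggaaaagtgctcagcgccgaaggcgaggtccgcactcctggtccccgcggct
Col1a2: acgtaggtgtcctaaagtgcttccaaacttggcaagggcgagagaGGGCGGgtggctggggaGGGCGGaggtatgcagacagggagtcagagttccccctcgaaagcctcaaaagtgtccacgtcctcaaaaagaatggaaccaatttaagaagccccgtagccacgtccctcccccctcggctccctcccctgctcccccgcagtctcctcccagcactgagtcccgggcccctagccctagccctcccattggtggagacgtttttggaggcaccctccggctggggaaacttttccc
Col6a2: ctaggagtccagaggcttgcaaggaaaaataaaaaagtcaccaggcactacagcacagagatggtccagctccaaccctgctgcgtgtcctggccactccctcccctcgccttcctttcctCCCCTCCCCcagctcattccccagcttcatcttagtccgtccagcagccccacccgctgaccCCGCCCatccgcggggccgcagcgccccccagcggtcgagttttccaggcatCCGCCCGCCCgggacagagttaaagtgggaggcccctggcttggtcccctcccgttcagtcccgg
Col4a2: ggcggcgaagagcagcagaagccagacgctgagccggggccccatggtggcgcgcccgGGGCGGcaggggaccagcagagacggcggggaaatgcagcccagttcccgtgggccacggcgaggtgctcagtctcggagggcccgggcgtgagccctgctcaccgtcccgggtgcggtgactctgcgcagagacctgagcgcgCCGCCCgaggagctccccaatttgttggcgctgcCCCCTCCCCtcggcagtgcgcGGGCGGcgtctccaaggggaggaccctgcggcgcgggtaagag

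Counting the printed bases from 1 at the 5′ end, the Col5a1 summits of EL replicates 1, 2 and 3 lay at bases 189, 129 and 189, which is 62, 122 and 62 bases before the start site. Those of Col1a2 lay at bases 159, 165 and 135, and those of Col6a2 at bases 75, 161 and 133. In Col5a1 the 2 summits at base 189 followed the GC box at bases 178 to 183. In Col6a2 the 9-letter motif stands at bases 122 to 130, and the nearest summit was that of EL replicate 3. Col6a2 has a further start site at its upper boundary, so these summits lay between the start sites, with the merged region 50 bp from the boundary.

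The exact 9-letter motif occurred in 6 of the 38 member windows (15.8%) and in 6.37% of the 32851 windows of the table. Those windows belong to 27025 genes, a wider set than the 21887 protein-coding genes used as background elsewhere. The exact letters were absent from the windows of Col5a1 and Col1a2. At least 8 of its 9 letters matched in 32 of 38 member windows (84.2%) and in 38.8% of all windows, exact matches included. In Col5a1 such a match at bases 187 to 195 held the summit base 189 of EL replicates 1 and 3, and others began at bases 89 and 95. In Col1a2 they began at bases 58, 168 and 184. The GC box was found in 23 of 38 member windows (60.5%) and in 35.7% of all, with 2 matches in Col5a1, 2 in Col1a2 and 3 in the Col6a2 window shown. GC content was 75% in Col5a1, 61% in Col1a2, 64.3% in Col6a2 and 73.7% in Col4a2, with a median of 59.8% over member windows and 52.7% over all. Over the whole table, windows with a summit held the 9-letter motif in 32.6% to 41.3% of cases in EL libraries and 38.4% to 50.1% in PT libraries, and windows without a summit in 4.86% to 5.58%. The windows of Col4a1 and Col4a2, genes that start head to head, contained the same copy of the motif and no called summit. A match is a run of letters and not a measured binding site.

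Gene boundaries were examined first, counting a summit within 1 kb of either end of the gene. EL replicates 1, 2 and 3 had such a summit at 4, 10 and 4 of the 44 collagen genes, and each PT library at 0. The EL mean was 13.6% ± 7.87 of the members (SD, n = 3). All protein-coding genes had a boundary summit at 13.5%, 20.8% and 11.7% in the EL lists and at 5.76%, 7.53% and 11.1% in the PT lists. The EL share of collagen genes was therefore close to that of all genes, and the PT share lay below it. The lists differ in length, from 7055 to 15770 summits in EL and from 2897 to 6033 in PT, and read depth is unknown, so each library was also cut to its 2897 summits of highest score. In these lists of equal length 2, 4 and 4 members were bound in EL and 0 in each PT library, against 5.96% to 6.09% of all genes in EL and 5.75% to 6.21% in PT.

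**Figure D1:**
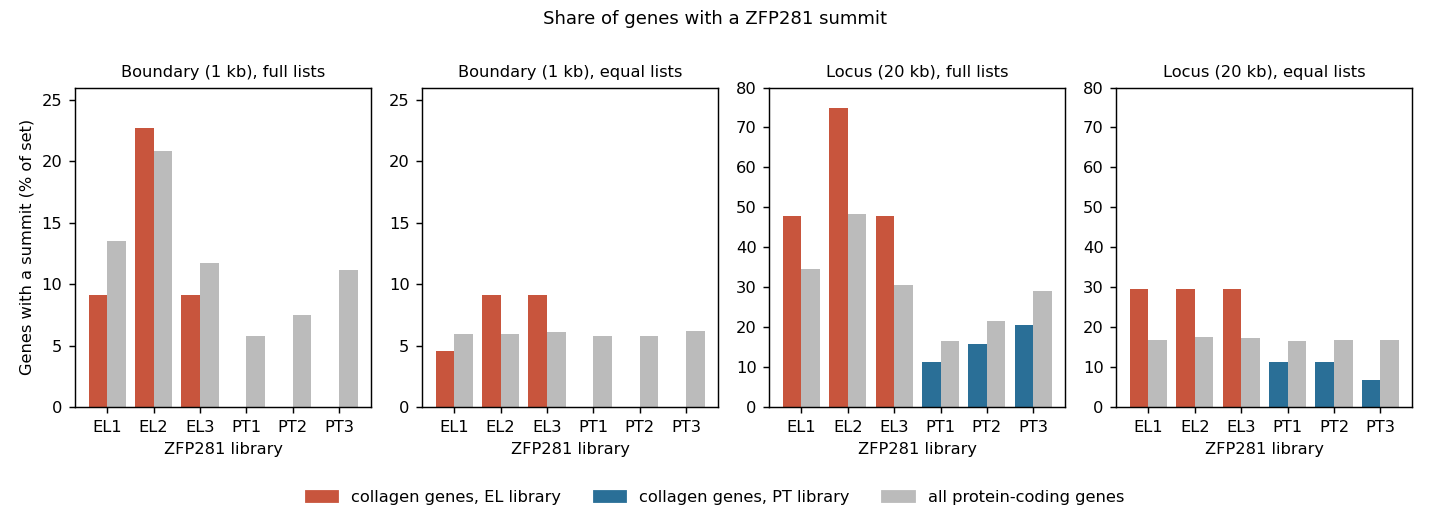
Percentage of genes with a ZFP281 summit in each library (EL1 to EL3 and PT1 to PT3 are the replicates), for the 44 collagen genes in colour and all 21887 protein-coding genes in grey, at the gene boundary or in the locus, in full lists and in lists of equal length. A missing coloured bar is a share of 0, as at the boundary in all 3 PT libraries, and in the locus panel of equal lists the EL bars stand at 29.5% with the PT bars between 6.82% and 11.4%.

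Boundary summits in all 3 EL and in no PT library were found at 4 collagen genes, Col1a1 and Col1a2, whose chains make type I collagen, Col5a1, a type V chain that helps to start type I fibrils, and Col6a2, a chain of the beaded filaments of type VI. They are 9.09% of the members, beside 1.94% of all protein-coding genes. At equal list length Col1a1 and Col5a1 kept this pattern (4.55% of members, beside 0.379% of all genes), while Col1a2 and Col6a2 lost the summit of EL replicate 1. At Col1a1 the sites then differed, since EL replicates 1 and 2 had a summit near the lower boundary (percentiles of 7.34 and 41.4) and EL replicate 3 only one near the upper boundary (3.80). No member had the opposite pattern, found in 0.0457% of all genes in full lists and in 0.338% at equal length. No member was bound at the boundary in all 6 libraries either, as were 4.39% of all genes in full lists and 2.99% at equal length. A further 6 members, Col4a5, Col5a3, Col15a1, Col16a1, Col24a1 and Col25a1, had a boundary summit in EL replicate 2 alone, the longest list, and the other 34 had none. Since earlier results on these genes were known when they were chosen, no test was made over the members. For 1 gene or region at a time the exact permutation test of 3 against 3 libraries cannot fall below p = 0.1.

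The locus of each gene, its body and the 20 kb on either side, held far more summits. The EL libraries had 46, 84 and 45 distinct summits in collagen loci, in the order of their replicate numbers, and the PT libraries had 5, 10 and 12. Means of 58.3 ± 22.2 for EL and 9 ± 3.61 for PT (SD, n = 3 each) gave a ratio of 6.48. As a share of the list these summits made up 0.569% ± 0.0599 in EL and 0.207% ± 0.0383 in PT (SD, n = 3 each), a ratio of 2.75. With lists of equal length the numbers were 16, 17 and 18 against 5, 5 and 4, a ratio of 3.64. All EL values lay above all PT values in each of these comparisons. The loci of all protein-coding genes held 7490, 13311 and 6152 summits in the full EL lists and 2583, 3604 and 5329 in PT. There too all EL numbers lay above all PT numbers. As a share of the list they were 84.4% to 87.2% in EL and 88.3% to 89.4% in PT. At equal length they numbered 2577 to 2590 in EL and 2583 to 2592 in PT. In the same lists each EL library had summits at 13 members (29.5%), not all of them the same, and the PT libraries at 5, 5 and 3 (11.4%, 11.4% and 6.82%), where all protein-coding genes stood at 16.9% to 17.6% in EL and 16.7% to 16.9% in PT. Collagen genes are long, with a median of 114 kb against 17.2 kb for all protein-coding genes, and longer genes offer more room for a summit.

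**Figure D2:**
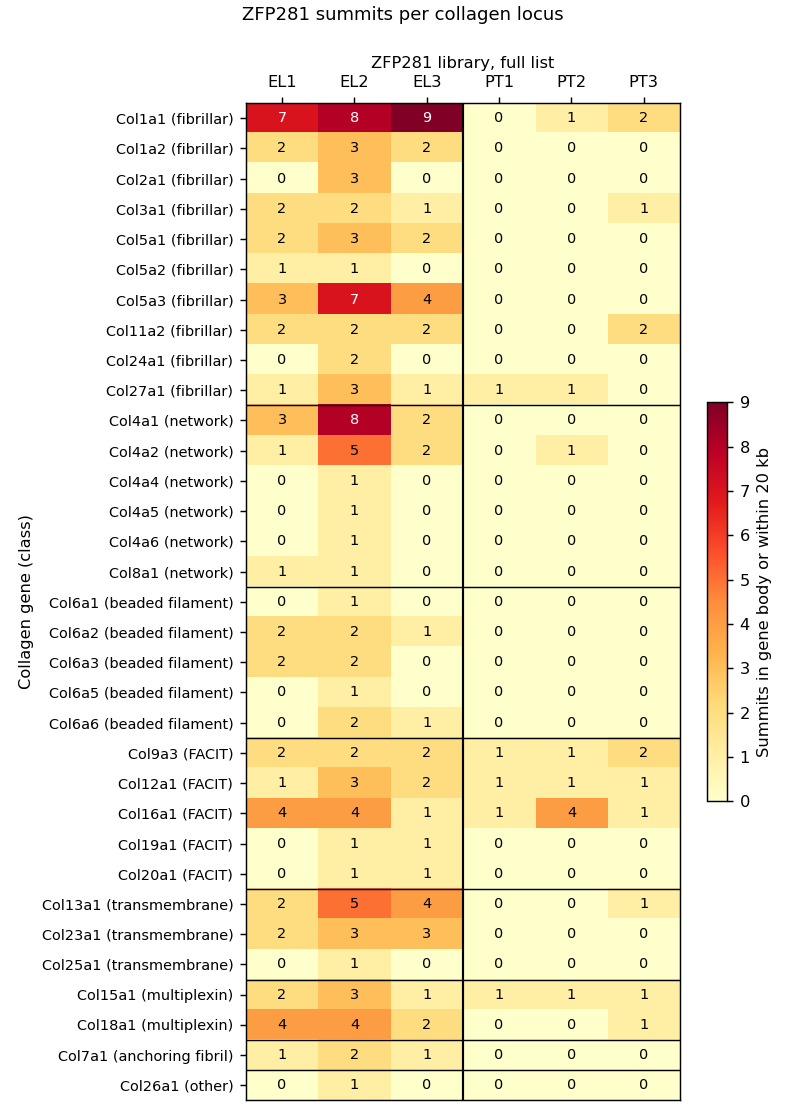
Number of summits in the gene body or within 20 kb, for the 33 collagen genes with at least 1 summit (rows, grouped by class) in each library (columns, full lists, EL1 to EL3 left of the line and PT1 to PT3 right of it). Col1a1 holds the most, with 7, 8 and 9 summits in EL and 0, 1 and 2 in PT, and Col16a1 has 4, 4 and 1 in EL and 1, 4 and 1 in PT.

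More summits in every EL than in every PT library were counted at 10 members, Col1a1, Col1a2, Col5a1, Col5a3, Col4a1, Col6a2, Col7a1, Col13a1, Col18a1 and Col23a1 (22.7%, beside 9.26% of all genes). Among genes of 100 kb or more the shares were close, 5 of 26 members (19.2%) beside 16.6% of all, and among shorter genes they were 5 of 18 (27.8%) beside 8.34%. At equal list length the pattern was found at 6 members (13.6%, beside 2.12% of all genes), Col1a1, Col1a2, Col3a1, Col5a1, Col5a3 and Col7a1. These are 5 of the 11 fibrillar genes and the anchoring fibril gene. By length they were 5 of the 18 shorter members (27.8%, beside 2.00% of all shorter genes) and 1 of the 26 longer ones (3.85%, beside 3.01%). No member had more summits in every PT library, as did 0.274% of all genes in full lists and 1.83% at equal length. Summits in all 6 libraries were present at 4 members, Col9a3, Col12a1, Col15a1 and Col16a1 (9.09%, beside 13.0% of all genes). Only Col9a3 and Col12a1 had them in all 6 at equal length (4.55%, beside 8.76%). No summit in any library was found at 11 members (25.0%, beside 48.6% of all genes), namely Col4a3, Col6a4, Col8a2, Col9a1, Col9a2, Col10a1, Col11a1, Col14a1, Col17a1, Col22a1 and Col28a1. Col17a1, the collagen of epithelial hemidesmosomes, was among them. At equal length 29 members had none (65.9%, beside 72.1%).

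To compare single sites, neighbouring summits no more than 200 bp from each other were joined to a region. Of 96 regions in collagen loci, 22 were found in all 3 EL and no PT library (22.9%, beside 9.70% of the regions in the loci of all protein-coding genes). None was found in all 3 PT and no EL library (background 0.704%), and 3 were found in all 6 (3.12%, background 8.92%). Of the 96, 33 came from EL replicate 2 alone. These counts were made at the 200 bp distance only. At Col13a1 a summit of PT replicate 3 at 61936505 was not joined to the EL region from 61936779 to 61936841, which is among the 22. At equal list length 9 of 26 regions were found in all 3 EL and no PT library (34.6%, background 6.88%), 0 in all 3 PT and no EL library (background 5.96%) and 2 in all 6 (7.69%, background 17.6%). Of the 22 regions of the full lists, 17 lay inside a collagen gene and 0 within 1 kb of another protein-coding gene. Of all 96 regions, 67 lay inside a collagen gene and 7 within 1 kb of another gene.

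The 11 fibrillar genes together held 20, 34 and 21 locus summits in the EL libraries and 1, 2 and 5 in the PT libraries, counting a summit once for each gene. Cut to equal length, the lists held 9, 10 and 11 in EL and 1, 1 and 0 in PT. Col1a1 (chromosome 11, 94936224 to 94953042) had the most of all collagen loci, with 7, 8 and 9 summits in EL and 0, 1 and 2 in PT, or 8 ± 1 against 1 ± 1 (SD, n = 3 each; two-sided exact permutation p = 0.1). Every EL count lay above every PT count, as at 9.26% of all genes. Cut to equal length, Col1a1 had 2, 3 and 3 summits in EL and 0, 0 and 0 in PT. EL counts above all PT counts were then found at 2.12% of all genes. The leading region of Col1a1, from 94933727 to 94933782, lay 2.44 kb below the lower boundary. In the full lists it had score percentiles of 94.0, 94.4 and 91.7 in EL and no PT summit. A score percentile is the rank of the authors' score within its own list, 100 being the highest. A region 634 bp inside the lower boundary (94936858 to 94936907) had percentiles of 68.7, 89.2 and 38.4, and one 3.04 kb inside the upper boundary (94949911 to 94950001) had 62.8, 88.6 and 89.0. The PT summits of this locus lay elsewhere, at exactly 20 kb below the lower boundary in PT replicate 3, and in PT replicates 2 and 3 at 5.38 kb above the upper boundary, where EL replicates 2 and 3 also had a summit.

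Col1a2, the partner chain of type I collagen, had its highest ranked site away from the gene. The region on chromosome 6 from 4490132 to 4490138 lay 15.5 kb upstream of the start site and had percentiles of 97.3, 97.1 and 92.0 in EL, with no PT summit within the locus. The nearest boundary of another protein-coding gene, Casd1, was 111 kb away. The promoter region printed above (4505502 to 4505532) ranked lower and varied more, at 37.5, 84.4 and 72.9. In lists of equal length the upstream region was present in all 3 EL libraries at percentiles of 91.9, 84.1 and 80.5, the highest lowest value of any collagen region found in EL alone.

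Type V collagen genes followed. The Col5a1 promoter region (chromosome 2, 27886303 to 27886363) had percentiles of 93.3, 97.3 and 86.0, and the second region, 2.53 kb inside the gene, had 73.9, 71.6 and 67.6, with no PT summit in the locus. Col5a3 had 3, 7 and 4 summits in EL and 0 in PT. Its leading regions lay inside the gene on chromosome 9, 4.67 kb (20810390 to 20810404) and 1.84 kb (20813208 to 20813247) downstream of the start site, at 94.8, 96.7 and 88.2 and at 79.7, 95.6 and 65.1. Both remained in all 3 EL and no PT list at equal length. Col5a2, the remaining type V gene, had 1 summit in each of EL replicates 1 and 2, shared with the locus of its neighbour Col3a1 and low in rank (percentiles of 0.920 and 28.4).

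**Figure D3:**
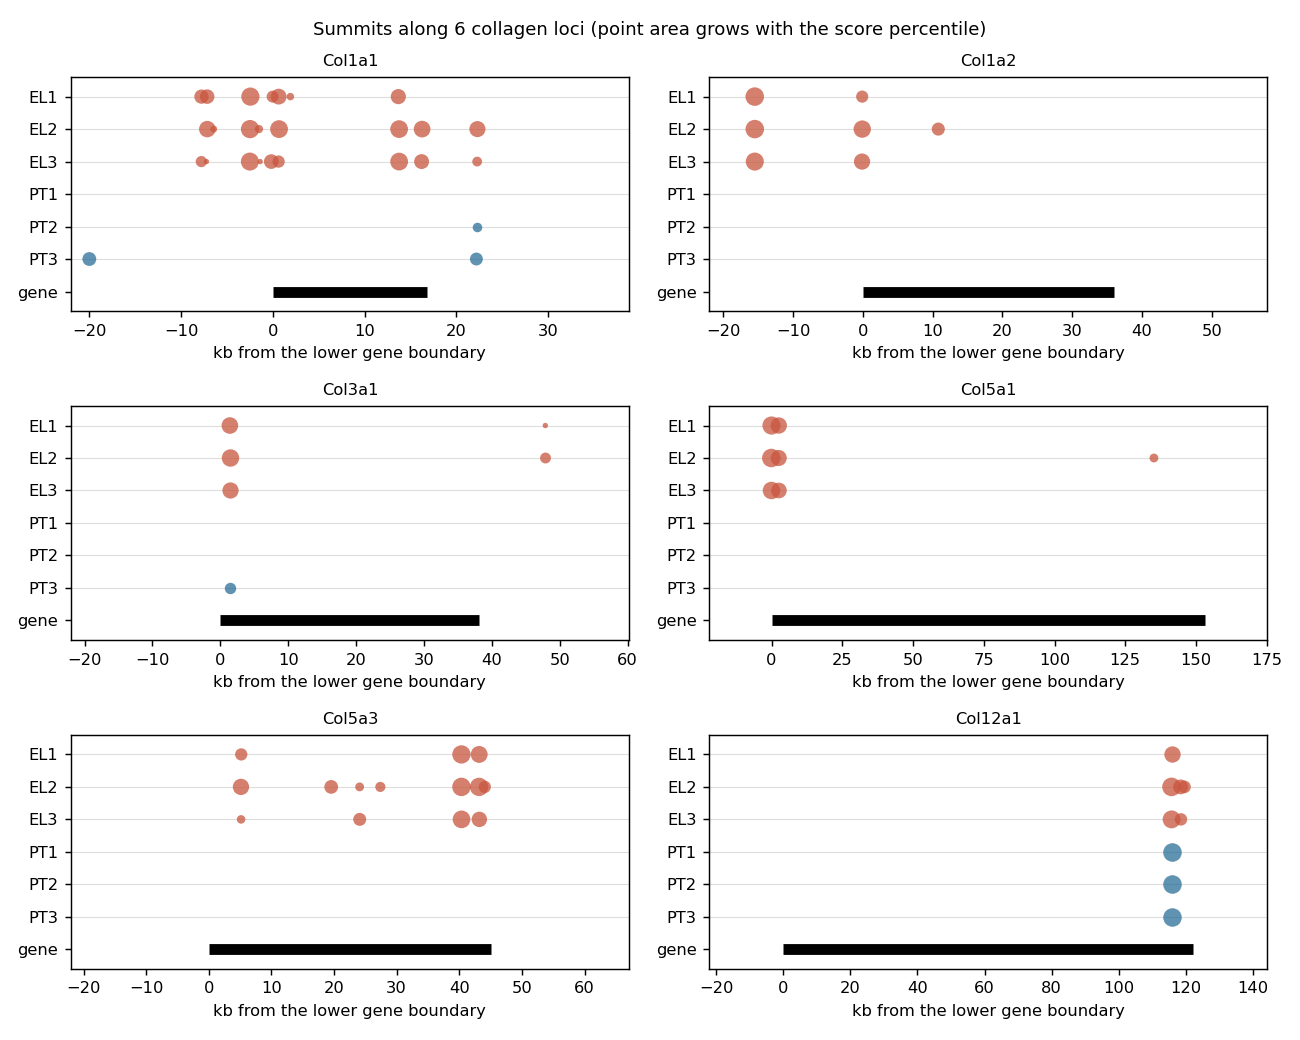
Summits along 6 collagen loci by distance in kb from the lower gene boundary (black bar: the gene), with 1 line per library (EL red, PT blue) and point areas that grow with the score percentile. In Col1a2, Col5a1 and Col5a3 only EL libraries have points, while the Col12a1 site is filled in all 6 libraries.

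Among the other fibrillar genes, Col3a1, which encodes type III collagen, had a region 1.45 kb downstream of its start site (chromosome 1, 45312941 to 45313030), just beyond the boundary window. It had percentiles of 76.8, 85.2 and 72.9 in EL, and PT replicate 3 had a summit there at 31.9. After the cut to equal length the site stood in the 3 EL lists alone, at 31.3, 19.4 and 33.9. Col27a1 had a region 13.7 kb downstream of its start site in all 3 EL and no PT library (chromosome 4, 63229092 to 63229105; 90.0, 92.7 and 65.1). Beyond its upper boundary, by 3.66 kb, another site was found in EL replicate 2 (70.0) and PT replicates 1 and 2 (51.4 and 74.5). The 2 regions of the Col11a2 locus were within 1 kb of other genes, Ring1 in one case and Rxrb and Slc39a7 in the other, and were bound in 3 EL libraries and in PT replicate 3. Col2a1 and Col24a1, of cartilage and bone, had summits in EL replicate 2 only, and Col11a1 had none.

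At the network collagens most summits lay inside the genes. Col4a1 and Col4a2, the main basement membrane chains, held 3, 8 and 2 and 1, 5 and 2 summits in EL, and 0, 0 and 0 and 0, 1 and 0 in PT, with EL replicate 2 the highest at both. Col4a1 had regions 56.8 kb and 50.2 kb downstream of its start site in all 3 EL libraries, at lowest percentiles of 5.92 and 30.3, and Col4a2 had one 69.9 kb downstream at 85.6, 85.6 and 36.6. Col4a4, Col4a5 and Col4a6 had 1 summit each in EL replicate 2, and Col8a1 had 1 in each of EL replicates 1 and 2. Of type VI, the Col6a2 promoter region had percentiles of 62.8, 83.9 and 68.6 in EL. Its neighbour Col6a1 had 1 summit in EL replicate 2, and Col6a3, Col6a5 and Col6a6 had at most 2 in any EL library. No type VI gene had a summit in PT. At equal list length the 9 network genes together held 1, 1 and 0 locus summits in EL and 0, 1 and 0 in PT. Col4a1 then had none in any library. The 6 type VI genes held 0, 1 and 1 in EL and 0, 0 and 0 in PT.

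The 9 FACIT genes together held 7, 11 and 7 locus summits in the EL libraries and 3, 6 and 4 in the PT libraries, and 3 in every library once the lists were of equal length. Col12a1, a FACIT collagen found along type I fibrils, was bound in all 6 libraries at a region of chromosome 9 (79714661 to 79714699), 6.44 kb inside the upper boundary. It had percentiles of 73.9, 98.4 and 90.3 in EL and of 97.8, 97.5 and 97.1 in PT, with an EL minus PT difference of -9.92 (two-sided exact permutation p = 0.4). Ranks of lists of different length do not compare directly. In the lists of equal length EL had 22.7, 91.4 and 76.4 and PT had 97.8, 96.5 and 94.1, and all PT values then lay above all EL values (63.5 ± 36.1 and 96.1 ± 1.88, SD, n = 3 each; two-sided exact permutation p = 0.1). EL replicate 1 was the lowest of the 3 EL values. The regions 3.67 kb inside the upper boundary, in EL replicates 2 and 3, and 2.60 kb inside it, in EL replicate 2, had no PT summit.

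Col9a3, a chain of the cartilage collagen type IX, counted as bound in all 6 libraries through a region 15.1 kb below its lower boundary (chromosome 2, 180582845 to 180583013) that lay inside the neighbouring gene Mrgbp. EL libraries had percentiles of 84.3, 88.6 and 87.0 and PT libraries 38.3, 42.3 and 71.5 (two-sided exact permutation p = 0.1). At equal length the groups overlapped, at 53.3, 38.0 and 68.3 against 38.3, 19.7 and 40.6 (exact permutation p = 0.3). The other Col9a3 region lay at Ogfr and had 21.0, 60.2 and 0.361 in EL and 64.4 in PT replicate 3, the only library that held it at equal length. Col16a1 had 4, 4 and 1 summits in EL and 1, 4 and 1 in PT. Its region 13.3 kb above the upper boundary lay inside another gene, Pef1. It was found in 3 EL libraries (75.8, 90.0 and 70.9) and PT replicate 3 (43.5). For EL replicate 3 and PT replicate 3 it held the only summit of the Col16a1 locus. A region 33.3 kb inside the lower boundary of Col16a1 was found in EL replicates 1 and 2 and PT replicates 1 and 2. PT replicate 2 had another 2 summits inside the gene that no other library shared, and 1 summit 11.6 kb below it in a region with EL replicates 1 and 2. Col19a1 and Col20a1 had 1 summit each in EL replicates 2 and 3 and none in PT. The Col20a1 region lay at the boundary of another gene, Arfgap1.

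**Figure D4:**
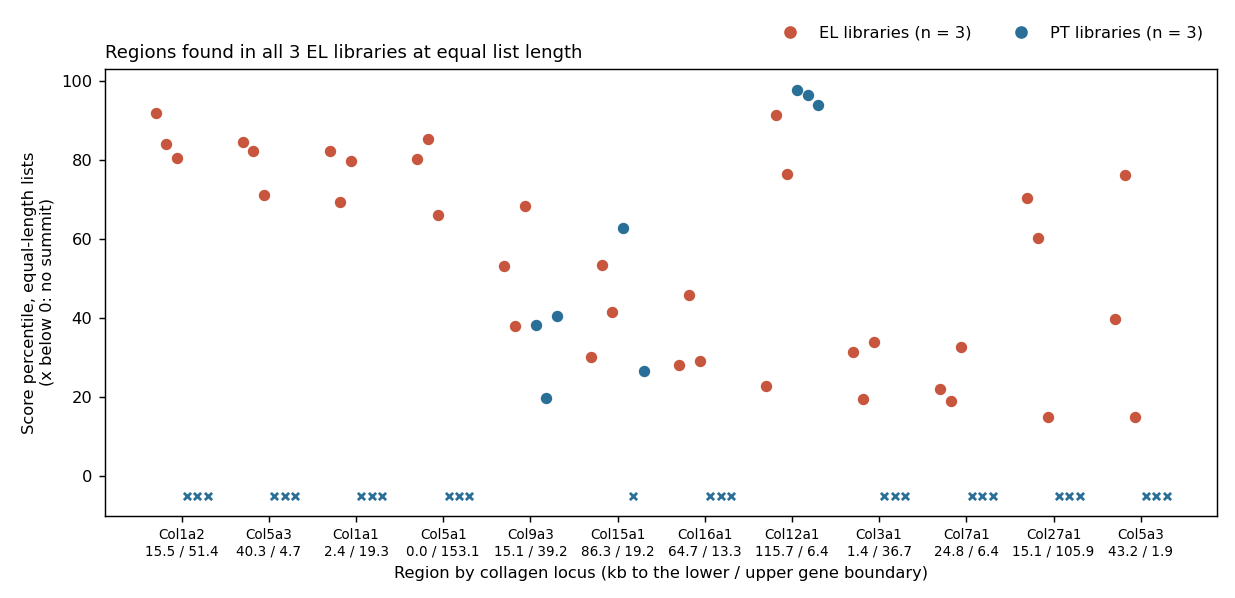
Score percentiles in lists of equal length for the 12 collagen regions found in all 3 EL libraries, with 1 point per library (EL red, PT blue) and a cross where a library had no summit; labels give the gene and the distance in kb to its lower and upper boundary. Crosses mark all PT libraries at 9 of the regions, while at Col12a1 the PT points, from 94.1 to 97.8, lie above the EL points.

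Transmembrane, multiplexin and anchoring collagens were bound mostly inside the genes. Col13a1, a collagen of the cell surface, had 2, 5 and 4 summits in EL and 1 in PT replicate 3, with a leading region 49.6 kb downstream of the start site (85.6, 67.7 and 50.5). Col23a1 had 2, 3 and 3 in EL and none in PT. Col18a1, from whose protein endostatin is cut, had 4, 4 and 2 in EL and 1 in PT replicate 3, and a region 16.4 kb downstream of one of its start sites (58.5, 67.7 and 68.6). Col15a1, the other multiplexin, was bound in all 6 libraries 86.3 kb inside its lower boundary (chromosome 4, 47293912 to 47294011), at 76.4, 91.4 and 76.0 in EL and 62.8, 14.2 and 64.8 in PT (two-sided exact permutation p = 0.1). At equal length PT replicate 2 lacked this site and the groups overlapped, at 30.1, 53.3 and 41.6 in EL against 62.8 and 26.7 in PT replicates 1 and 3, with PT replicate 1 above all EL values. Col7a1, which forms the anchoring fibrils of the epithelial basement membrane, had 1, 2 and 1 summits in EL and none in PT, with a region 6.44 kb inside its upper boundary (chromosome 9, 108978416 to 108978432; 73.7, 85.1 and 72.3). At equal length the 4 transmembrane genes together held 1, 0 and 0 locus summits in EL and 0, 0 and 0 in PT. Col23a1 then had none, and Col18a1 had 1 in EL replicate 3 alone. Col7a1 kept 1 in each EL library and had none in PT.

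Genes whose products modify collagen were bound at the boundary in 9, 14 and 8 of 32 in EL and 0, 2 and 6 in PT. All protein-coding genes stood at 13.5%, 20.8% and 11.7% in EL and at 5.76%, 7.53% and 11.1% in PT. A summit in all 3 EL and no PT library was found at 2 of the 32 modifying genes, beside 1.94% of all genes. These were Pcolce, which enhances procollagen processing, and Lox, a crosslinking enzyme. Serpinh1, the collagen chaperone, was bound in 3 EL and 2 PT libraries, at percentiles of 88.0, 90.9 and 91.1 in EL and 60.6 and 71.5 in PT replicates 2 and 3. P3h4 and Fkbp10, neighbours that share a site in EL, and Bmp1, the procollagen C-proteinase, were bound in 3 EL libraries and PT replicate 3. Collagen receptor genes were bound in 3, 5 and 3 of 10 in EL and 0, 0 and 1 in PT. The receptor genes Ddr2 and Mrc2 had summits in all 3 EL and no PT library, the pattern of 1.94% of all genes. Itgb1 had summits in 3 EL libraries and PT replicate 3. At equal list length 4, 5 and 5 of the 32 modifying genes were bound in EL and 0, 2 and 2 in PT. Receptor genes were bound in 1, 2 and 1 of 10 in EL and 0, 0 and 1 in PT. All genes then stood at 5.96% to 6.09% in EL and 5.75% to 6.21% in PT. Pcolce, P3h4 and Fkbp10 were then the modifying genes bound in all 3 EL and no PT library, beside 0.379% of all genes. Among receptor genes 0 showed that pattern. Loxl3, another crosslinking enzyme, went the other way, with summits in PT replicates 2 and 3 (48.8 and 4.61) and in no EL library, after 2 EL and 2 PT libraries in the full lists.

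Marker genes of the cell types that the cultures could hold were counted in the same way, since a summit list shows binding and not expression, and so cannot test the cell type label. Beside these counts stand the boundary shares of all genes given above, 11.7% to 20.8% in EL and 5.76% to 11.1% in PT in full lists. Fibroblast genes other than collagens were bound in 3, 6 and 2 of 12 in EL and 0, 0 and 1 in PT. Among them 1, Dcn, was bound in all 3 EL and no PT library, beside 1.94% of all genes. Epithelial genes were bound in 3, 3 and 3 of 10 in EL and 3, 3 and 5 in PT. At equal length the numbers were 0, 2 and 2 against 0, 0 and 0 for fibroblast genes, and 1, 0 and 0 against 3, 3 and 4 for epithelial genes. The shares of all genes were then 5.96% to 6.09% in EL and 5.75% to 6.21% in PT. Endothelial markers were bound in 0 of 8 in every library, leukocyte markers in at most 1 of 8, and lung epithelial markers (Foxj1 and Sftpc) in 2 of 8 in each EL library and in 0, 1 and 2 in PT. The Sftpc summits had the same percentiles as those of Bmp1 in every library and were thus counted in both lists. The part of cell composition in the collagen counts was not tested.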

How the data were processed

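ZFP281 chromatin immunoprecipitation had been sequenced as paired reads of 150 bp in 3 EL and 3 PT libraries. Per the submitters' processing notes, Bowtie2 2.3.4.3, Picard and the build mm10 were used. No source used here gives the peak caller or says whether the inputs were used. The authors deposited 1 summit list per library with a score per summit, read here as the −log10 of a q-value because the lowest scores of the lists, 1.30 to 1.55, lay just above the −log10 of 0.05. The score was used only as a rank within a list.

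Positions were converted to 1-based coordinates and set against RefSeq gene boundaries and promoter windows with Python 3.11.15, pandas 2.3.3 and numpy 2.4.6. A summit near several genes was counted for each. Ties in score at the limit of the equal lists were broken by file order. Exons could not be read from the table. Exact permutation tests of single regions and loci were two-sided. Identical positions numbered at most 81 for any 2 lists. Counting was tested on simulated data.

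The members, classes and lists were chosen with earlier results of these data known. Named were members with a boundary summit, with counts that did not overlap between groups, with summits in all 6 libraries or with none, and up to 15 leading regions; further members and regions, the partial motif matches and the division at 100 kb were chosen after their values were seen. Alternatives were equal list lengths, scores of at least 5 or 10, other windows, autosomes, each library left out and a replicate block. Merging at 50 or 500 bp was tried for the percentiles of single regions alone.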

Additional observations from a re-analysis of the deposited data

How the results depend on the processing

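Depth is unknown, so a missing summit cannot be told from a library with too few reads. The number of members with a boundary summit in all 3 EL and no PT library was 4, and 2 at equal list length, and it stayed within 1.5 times of 4 in the other 12 alternatives (3 to 5). Members with a boundary summit in any EL library numbered 10, but 4 at equal length, 6 with scores of at least 10, 20 within 5 kb, and 4 to 10 with 1 library left out, the lowest without EL replicate 2. Members with a boundary summit in any PT library numbered 0, and 2 within 5 kb. Members with more locus summits in every EL library numbered 10, but 6 at equal length, and 10 to 15 with 1 library left out, where the rule is looser. The EL minus PT difference in the share of the list in collagen loci was 0.362 percentage points, 0.426 at equal length and 0.269 in gene bodies alone, with 0.328 to 0.383 over libraries left out. The Col15a1 difference in percentile was 17.5 without PT replicate 2, and that of Col12a1 -3.11 without EL replicate 1 and -32.6 at equal length, where Col9a3 had 20.4. These differences and counts kept their direction in the alternatives that gave a value, but the mean number of Col9a3 locus summits, higher by 0.667 in EL in full lists, had an EL minus PT difference of -0.333 at equal length.

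Replicate numbers are shared by the groups, and the labels do not say that they mark shared animals. Deviations of same-numbered libraries from their group means correlated at -0.0587, -0.00190 and -0.0128 over 19317 regions. Differently numbered libraries gave -0.0373 to 0.0574. With 3 libraries in each group, these values cannot decide whether the numbers mark shared animals or batches. With the replicate block the differences in percentile of the Col9a3, Col15a1 and Col12a1 regions stayed at 35.9, 34.0 and -9.92, with exact sign-change p of 0.25, 0.25 and 0.5, where 0.25 is the smallest possible. Merging at 50 bp gave no value for Col9a3 and equal length gave none for Col15a1, since not all 6 libraries then shared a region, and in the 5 that did the Col15a1 groups overlapped.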
